A study of Mus musculus with 4 samples.

Results

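The miRNAs described here are the vascular miRNAs miR-126, miR-143 and miR-145a, taken by name from the authors' deposited comparison of mouse olfactory tissue. All 7 listed arms were present among the 1167 miRNAs of that table. mmu-miR-126a-3p, mmu-miR-126a-5p and mmu-miR-126b-3p make up the endothelial side, and mmu-miR-143-3p, mmu-miR-143-5p, mmu-miR-145a-5p and mmu-miR-145a-3p the smooth-muscle side; the species prefix is left out below. miR-126a-5p and miR-126b-3p shared their reads and were counted once, which left 6 arms. The tissue was main olfactory epithelium of male C57BL/6 mice, aged 3 months. 2 small RNA libraries were wild type and 2 were AC3-/-, that is, from mice that lack adenylyl cyclase 3, which produces the cAMP of the odour response in sensory neurons of the nose. Apart from genotype, the labels give both groups the same strain, age, sex and tissue and name no treatment. They do not say whether the deletion is limited to a cell type, or whether the 2 libraries of 1 genotype are separate animals. Every p-value below therefore sets a difference only against the variation among these libraries, and that variation may be technical. Small RNA libraries hold no mRNA of AC3 by which the labels could be checked.

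A precursor hairpin is cut into a 5p and a 3p arm, and the arm that is loaded into Argonaute accumulates while its partner is mostly lost. miR-126 lies inside Egfl7, a gene of endothelial cells, and is known for sustaining VEGF signalling by repressing Spred1 and Pik3r2. miR-143 and miR-145a are made from 1 primary transcript under serum response factor and myocardin in smooth muscle cells and pericytes, where they are known for favouring the contractile state. The olfactory mucosa holds a dense bed of capillaries and larger vessels below its sensory epithelium, so a dissected sample can contain both cell types. In bulk tissue, fewer cells of a type and less RNA per cell cannot be told apart.

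The miR-126 sequences are shown because they bear on which rows can be counted as separate. The seed, bases 2 to 8 from the 5′ end, is in capitals in the mature miRNAs. In the Mir126a hairpin the capitals mark the 23 bases that lie opposite miR-126b-3p on the other strand. Sequences are from RefSeq (GRCm38), 5′ to 3′.
miR-126a-3p: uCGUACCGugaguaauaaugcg
miR-126b-3p: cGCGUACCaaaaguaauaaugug
Mir126a hairpin: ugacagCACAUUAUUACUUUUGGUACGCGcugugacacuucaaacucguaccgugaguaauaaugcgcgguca
The capitals of the hairpin are the exact reverse complement of miR-126b-3p. Mir126a lies at chr2:26591357-26591429 on the plus strand, and Mir126b at chr2:26591363-26591420 on the minus strand, inside the span of Mir126a (GRCm38). Both lie within the span of Egfl7, a gene on the plus strand, in an intron that GENCODE M21 also annotates as part of a retained-intron transcript. The 2 mature seeds share the run CGUACC of 6 bases, shifted by 1 position. No other of the 1679 mature mouse miRNAs in the RefSeq table has the seed of miR-126a-3p, and none has that of miR-126b-3p. The RefSeq table held a mature sequence for 2 of the 7 arms.

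The genes of the smooth-muscle pair stand next to each other on the minus strand of chromosome 18. Mir143 spans 61649196 to 61649258 and Mir145a 61647825 to 61647894 (GRCm38), with 1301 bases between them. No annotated gene of GENCODE M21 spans either.

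Each genotype has 1 column of means of normalised read counts in the authors' deposited table, that is, reads divided by a size factor for sequencing depth and averaged over the 2 libraries. Single libraries were worked back from these means, which are whole-number combinations of the values of 1 read in each library. They are called AC3-/- a, AC3-/- b, wild-type a and wild-type b, letters that carry no replicate number. The size factors were 1.15 and 1.10 for AC3-/- and 0.941 and 0.855 for wild type. 4 of the 6 arms had 1 solution in both genotypes: miR-126a-5p, miR-143-5p, miR-145a-5p and miR-145a-3p. The 2 most abundant, miR-126a-3p and miR-143-3p, had between 41 and 328 solutions, so only their means are given. The arms with library values rested on 907 to 17572 reads a library, without molecular identifiers.

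Wild-type b stood apart from the others across the profile. 449 miRNAs had library values and reached a mean of 10. Between 95 and 116 of these differed by 2-fold or more in each pair of libraries that held wild-type b, and between 26 and 52 in each pair without it. Single arms could go otherwise: for miR-145a-3p wild-type a was the library outside the AC3-/- range. For each of the 4 arms with library values, the genotype difference is therefore also given against the wild-type libraries singly or without 1 of them. miRNAs of a sensory and epithelial list were present in every library, as the summed levels of those with library values show further on. Whether they are particular to the labelled tissue was not tested.

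The smooth-muscle miRNA miR-143-3p was the most abundant arm of the group and among the leading miRNAs of the tissue. In the authors' deposited table its mean was 474412 normalised reads in AC3-/- and 408720 in wild type, ranks 3 and 9 of 1167. This was 5.43% of the summed means in AC3-/- and 3.32% in wild type. miR-126a-3p, the main endothelial arm, followed with 142128 and 118117 (ranks 15 and 19). miR-145a-5p, the main arm of miR-145a, had 15324 and 11793. The remaining arms, the less abundant partners, lay between 1368 (miR-143-5p) and 2727 (miR-126a-5p), both in wild type. The order of the 6 arms was the same in both genotypes: miR-143-3p, miR-126a-3p, miR-145a-5p, miR-126a-5p, miR-145a-3p and miR-143-5p. In wild type the neighbours miR-126a-5p and miR-145a-3p, with means of 2727 and 2718, differed by less than the spread between libraries. In AC3-/- the values of miR-145a-3p and miR-143-5p overlapped across libraries, but within each library miR-143-5p was lower, at 0.742 and 0.836 of miR-145a-3p. Ligation and PCR favour some sequences, so this is an order of reads and not of molecules.

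**Figure D1:**
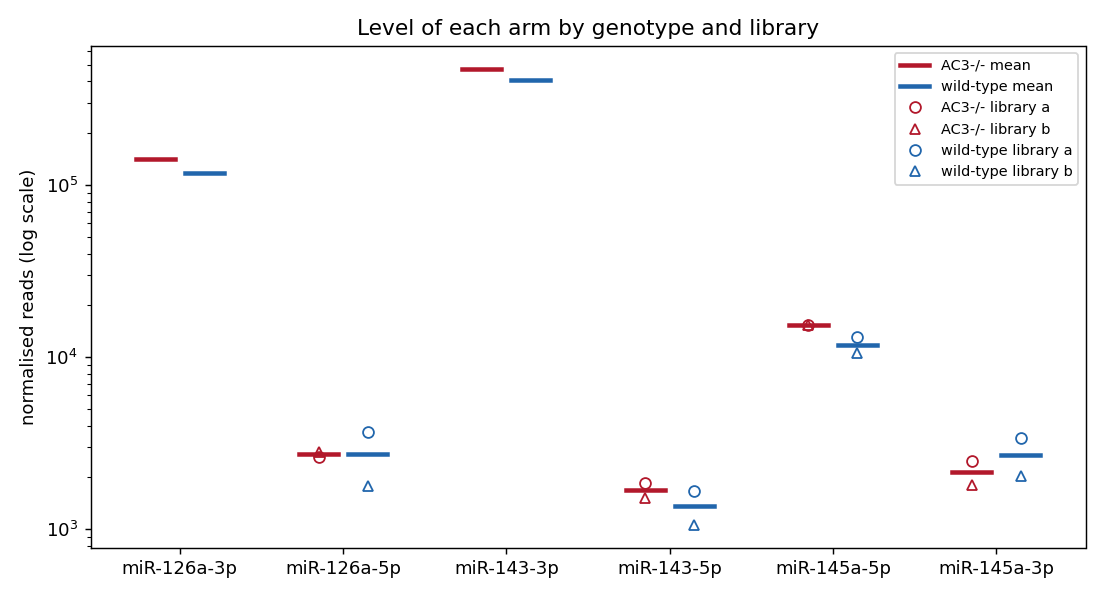
Normalised reads of the 6 arms (log axis) in AC3-/- (red) and wild type (blue). Bars are the authors' genotype means, circles and triangles are libraries a and b of the 4 arms that could be split. Only for miR-145a-5p do both AC3-/- libraries (15308 and 15340) lie above both wild-type libraries (13054 and 10532).

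None of the 6 arms differed between the genotypes past an adjusted p of 0.05 in the authors' deposited table, where 1 of 1167 miRNAs did (0.0857%). That 1 was miR-124-3p, a neuronal miRNA, which averaged 29.3 normalised reads in wild type against 206 in AC3-/- (the authors' deposited table: log2 fold change 2.26, adjusted p = 1.59e-05). An unadjusted p under 0.05 was given to 0 of the 6 and to 3.51% of all miRNAs. The smallest among the arms was that of miR-145a-5p (the authors' deposited table: p = 0.233, adjusted p = 0.9395). A second test, limma on log2(normalised value + 1) over the 449 miRNAs with library values, also called 0 of the 4 arms it could test and 0 of 449 miRNAs (0%) after Benjamini-Hochberg adjustment. Its unadjusted p was under 0.05 for 0 of the 4 arms and for 16 of 449 miRNAs (3.56%). By their deposited means 4 of the 6 arms were higher in AC3-/- and 2 lower, with a median log2 fold change of 0.21. Without wild-type b the median over the 4 arms with library values was -0.22. Over all 1167 miRNAs 49.5% were above 0 and the median was -0.01.

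miR-126a-5p, the less abundant endothelial arm, had nearly equal genotype means made of unequal libraries. Its level was 2642 normalised reads in AC3-/- a, 2808 in AC3-/- b, 3679 in wild-type a and 1776 in wild-type b, from 3033, 3085, 3462 and 1519 reads. The AC3-/- libraries lay close together and between the wild-type ones, which were 2.07-fold apart. The authors' deposited table lists a log2 fold change of -0.001 for it (adjusted p = 0.9984). limma gave a log2 difference of 0.09 ± 0.41 (SE, adjusted p = 0.965), with a 95% interval from -0.94 to 1.12. These 4 libraries therefore do not exclude a difference of about 2-fold either way. Set against the wild-type libraries singly, the log2 ratio of its AC3-/- mean was -0.43 (wild-type a) and 0.62 (wild-type b).

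miR-126a-3p, the guide arm of the endothelial miRNA, had 1.20-fold the wild-type mean in AC3-/- (the authors' deposited table: log2 fold change 0.22, where the plain log2 ratio of the means was 0.27, adjusted p = 0.9395). Its library values could not be resolved, so the spread behind this ratio is not known here. It stood 52.2-fold above its partner miR-126a-5p in AC3-/- and 43.3-fold above it in wild type.

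miR-126b-3p added no separate information. Its reads equalled those of miR-126a-5p in 3 of the 4 libraries and were 1 lower in wild-type b (1518 against 1519), although the 2 rows carry sequences from opposite strands. 10 pairs of rows with a mean of at least 10 were within 1 read of each other in every library. miR-126b-5p, which is not in the list, lies opposite miR-126a-3p over 19 bases, and its row did not copy that of miR-126a-3p. The mean of miR-126a-3p was 90.4-fold that of miR-126b-5p in AC3-/- and 88.6-fold in wild type, and the level of miR-126b-5p was 1447 normalised reads in AC3-/- a, 1697 in AC3-/- b, 1518 in wild-type a and 1147 in wild-type b.

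Among the smooth-muscle arms, miR-145a-5p had the largest deposited difference of the 6 arms. Its level was 15308 normalised reads in AC3-/- a, 15340 in AC3-/- b, 13054 in wild-type a and 10532 in wild-type b, from 17572, 16853, 12285 and 9006 reads. Both AC3-/- libraries were above both wild-type ones, as was so for 16.7% of the 449 miRNAs with library values. The authors' deposited table lists a log2 fold change of 0.34, and limma gave a log2 difference of 0.39 ± 0.20 (SE, adjusted p = 0.932; 95% interval -0.13 to 0.90). Against wild-type a alone the log2 ratio was 0.23, and against wild-type b 0.54. With 1 library left out in turn the log2 difference stayed between 0.23 and 0.54, with adjusted p from 0.054 to 0.9988 in limma. In such fits 1 genotype has a single library, which is assumed to vary like those of the other, so these p-values say little about stability.

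miR-145a-3p, the partner arm of the same hairpin, lay the other way. Its level was 2503 normalised reads in AC3-/- a, 1807 in AC3-/- b, 3384 in wild-type a and 2052 in wild-type b, from 2873, 1985, 3185 and 1755 reads. The groups overlapped. The authors' deposited table lists a log2 fold change of -0.28 (adjusted p = 0.9395), and limma gave -0.31 ± 0.37 (SE, adjusted p = 0.932; 95% interval -1.24 to 0.62). Without wild-type a the difference was 0.05, and without wild-type b it was -0.67 (adjusted p = 0.44).

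miR-143-5p, the minor arm of miR-143, stood at 1856 normalised reads in AC3-/- a, 1511 in AC3-/- b, 1676 in wild-type a and 1061 in wild-type b, from 2131, 1660, 1577 and 907 reads. Wild-type b was the lowest, and the other 3 libraries overlapped. The authors' deposited table lists a log2 fold change of 0.25 (adjusted p = 0.9395), and limma gave 0.33 ± 0.36 (SE, adjusted p = 0.932; 95% interval -0.57 to 1.23). Without wild-type b nothing of this difference was left: the log2 difference was -0.00073. miR-143-3p, the main arm, stood at 0.19 on the log2 scale of the authors' deposited table (adjusted p = 0.9395).

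**Figure D2:**
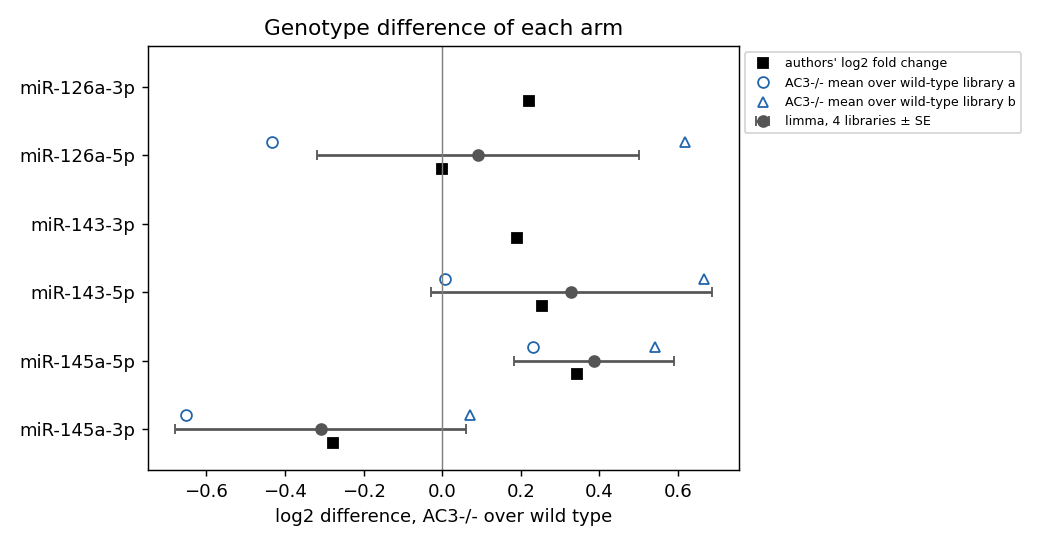
Log2 difference of AC3-/- over wild type for the 6 arms: the authors' log2 fold change (squares), limma over 4 libraries with its SE (filled circles), and the AC3-/- mean over wild-type a (open circles) or b (triangles). For miR-126a-5p the 2 open symbols lie on opposite sides of 0, at -0.43 and 0.62. For miR-145a-5p both lie above 0, at 0.23 and 0.54.

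The 4 arms with library values shared 1 feature across libraries: each was lower in wild-type b than in wild-type a, by 1.24-fold for miR-145a-5p, 1.58-fold for miR-143-5p, 1.65-fold for miR-145a-3p and 2.07-fold for miR-126a-5p. Of the 449 miRNAs with library values, 48.1% were lower in wild-type b than in wild-type a. In the list of other endothelium-enriched miRNAs (miR-139, miR-221, miR-222, miR-322, miR-503, miR-130a, miR-23a, miR-27a and miR-24-2) it was 16 of 16, with a median log2 ratio of -0.77. In the list of mural cells and fibroblasts (among them miR-199, miR-214, miR-195a, miR-10 and miR-21a) it was 11 of 18, with a median of -0.21. Blood markers lay the same way. The summed levels that follow cover only rows with library values, 8 of 16 for the sensory and epithelial list and 6 of 9 for multiciliated cells, and in both they leave out the most abundant miRNA (miR-200b-3p and miR-34c-5p). 6 of 6 red blood cell miRNAs were lower in wild-type b, with a summed level of 4194 normalised reads against 7420 in wild-type a and 5746 to 7667 in AC3-/-. 8 of 9 leukocyte miRNAs were lower, with 6443 against 18171 and 15865 to 20340 in AC3-/-. 6 of 6 multiciliated-cell miRNAs were lower, with 5976 against 30646 and 13868 to 26254 in AC3-/-. Other tissue markers went the other way, with 0 of 5 striated-muscle, 1 of 9 neuronal and 0 of 8 sensory and epithelial miRNAs (miR-183, miR-96, miR-182 and the miR-200 family) lower. The summed level of these 8 sensory and epithelial rows was 43870 in wild-type a, 106296 in wild-type b and 46900 to 49305 in AC3-/-. In each list 0 rows were at 0 in both genotypes. Their part in the differences of the vascular arms was not tested.

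Between genotypes, the other vascular lists showed small medians. Of 17 rows of the other endothelium-enriched list, 10 lay above 0 and 7 below in the authors' deposited table. Their median log2 fold change was 0.093, with a range from -0.28 to 0.60, and without wild-type b the median of the 16 with library values was -0.32. 0 of 17 had an unadjusted p under 0.05. The most abundant, miR-27a-3p, averaged 12399 in AC3-/- and 13201 in wild type (the authors' deposited table: log2 fold change -0.075, adjusted p = 0.979). Of 24 rows of the mural cell and fibroblast list, 11 lay above 0 and 13 below, with a median of -0.02, and 0 of 24 had an unadjusted p under 0.05. Its most abundant row, miR-21a-5p, averaged 999383 and 716969 (the authors' deposited table: log2 fold change 0.28, adjusted p = 0.9395).

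The scaling moved these differences more than any single arm differed. Over all miRNAs the wild-type means added up to 12320877 normalised reads, those of AC3-/- to 8739148, so dividing by the sum shifts every log2 difference up by 0.50. As shares of the summed means all 6 arms were higher in AC3-/-, from 1.12-fold for miR-145a-3p to 1.83-fold for miR-145a-5p. The shift applies to every miRNA, and the median log2 ratio of miRNAs with a mean of at least 10 was -0.05 before it. A higher share in AC3-/- is therefore not particular to these arms. For miR-126a-5p and miR-145a-3p dividing by the sum turned the sign, to log2 differences of 0.49 and 0.16. The deposited means of the whole sensory and epithelial list came to 5463498 in wild type but 1832630 in AC3-/-. By the authors' deposited values all 16 of its rows lay below 0, with a median log2 fold change of -0.74. The authors' unadjusted p was under 0.05 for 5 of the 16, against 3.51% of all miRNAs, and their adjusted p for 0. In the 8 rows with library values the summed level was higher only in wild-type b. It was 106296 there, 43870 in wild-type a and 46900 to 49305 in AC3-/-. Of these 8 rows, 2 were lower in both AC3-/- libraries than in both wild-type ones, and 0 were higher. The 8 rows hold little of the list's level, so they cannot decide whether its gap is one between genotypes. The part of this gap in the shift was not tested.

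Dividing 1 arm by another removes such scaling of a whole genotype. Within a library the ratio is free of the size factor, whereas a ratio of means still depends on the size factors of its 2 libraries. The summed miR-143 and miR-145a arms were 3.41-fold the summed miR-126 arms in AC3-/- and 3.51-fold in wild type, a log2 difference of -0.04. Between the main arms alone, miR-143-3p over miR-126a-3p, the ratios were 3.34 and 3.46. These 2 arms make up most of the sums, so the 2 comparisons are nearly the same. miR-145a-5p over miR-126a-3p lay the other way, at 0.108 in AC3-/- and 0.0998 in wild type, a log2 difference of 0.11. No library values stand behind any of these ratios, so their spread is not known. The resolved smooth-muscle arms over miR-126a-5p gave 7.44 in AC3-/- a, 6.64 in AC3-/- b, 4.92 in wild-type a and 7.68 in wild-type b. Wild-type b was the highest and wild-type a the lowest, so the groups overlapped. The mean log2 difference was 0.19 with a within-genotype SD of 0.33 (two-sided exact permutation test, n = 2 and 2, p = 1, where 0.3333 is the smallest p this design allows). Without wild-type a the difference was -0.13, and without miR-145a-5p it was -0.15, both of the opposite sign. Without wild-type b it was 0.51.

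Within the miR-145a hairpin the balance of arms differed between the genotype means, a comparison chosen after its values were seen. miR-145a-5p over miR-145a-3p was 6.12 in AC3-/- a, 8.49 in AC3-/- b, 3.86 in wild-type a and 5.13 in wild-type b. Both AC3-/- values were above both wild-type values. A limma fit to the log2 arm ratios of 52 precursors, each with both arms reaching a mean of 100, gave a difference of 0.70 ± 0.28 (SE, adjusted p = 0.671, 95% interval -0.028 to 1.42), which did not pass. In that limma fit 0 of 52 precursors passed (0%), the smallest adjusted p being 0.395, and 3 of 52 had an unadjusted p under 0.05 (5.77%). By size the miR-145a difference ranked 3 of 52, where the median absolute difference was 0.26. Among the 114 precursors with both arms reaching a mean of 10 it ranked 14, where that median was 0.32. The 95% interval there was -0.15 to 1.55 (limma adjusted p = 0.642). The groups did not overlap in 40.4% of the 52 precursors. With 1 library left out in turn the log2 difference ranged from 0.46 to 0.93, with adjusted p from 0.0882 to 0.962. The corresponding arm ratio of miR-143, 3p over 5p, was 282 in AC3-/- and 299 in wild type from the means alone.

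The ratio of the 2 minor arms of the shared transcript, miR-143-5p over miR-145a-3p, was 0.742 and 0.836 in AC3-/- and 0.495 and 0.517 in wild type. These groups did not overlap either, with a mean log2 difference of 0.64 and a within-genotype SD of 0.09. Of the 6 pairwise ratios among the 4 resolved arms, 2 had groups that did not overlap, as was so for 40.4% of the arm ratios of the 52 precursors. Both have miR-145a-3p as denominator. The groups overlapped for miR-145a-3p over miR-126a-5p, at 0.947 and 0.643 in AC3-/- and 0.920 and 1.16 in wild type. The 6 ratios share arms and are not independent. The exact permutation p was 0.3333 for each of these 2 ratios, the smallest possible, and 0.8 after Benjamini-Hochberg adjustment over the 6 ratios. For the main arms, miR-143-3p over miR-145a-5p was 31.0 in AC3-/- and 34.7 in wild type from the means.

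**Figure D3:**
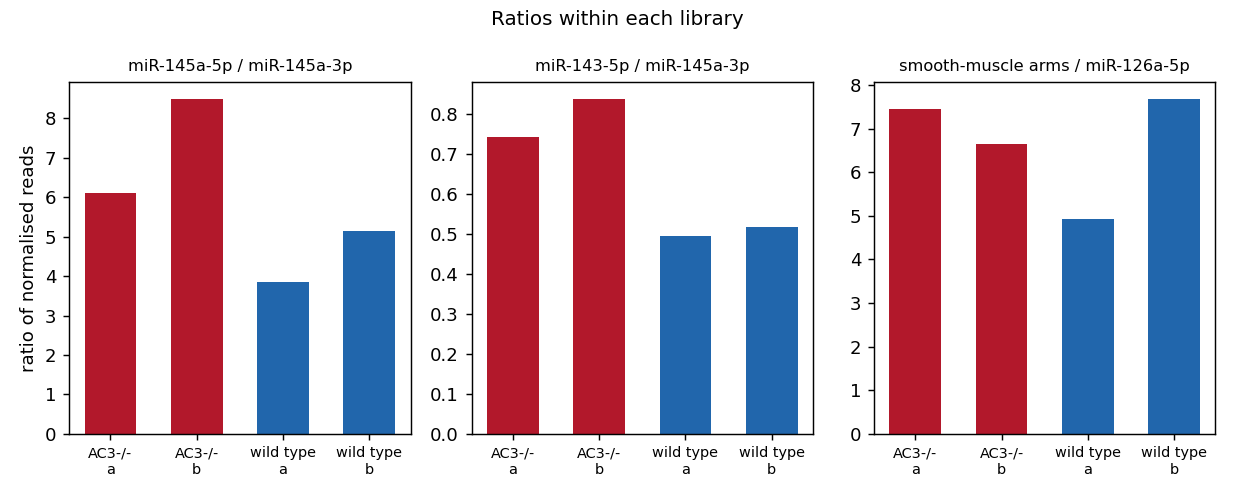
Ratios of normalised reads within each of the 4 libraries (AC3-/- red, wild type blue, 1 bar a library). miR-145a-5p over miR-145a-3p (3.86 to 8.49) and miR-143-5p over miR-145a-3p (0.495 to 0.836) are higher in both AC3-/- libraries, while the smooth-muscle arms over miR-126a-5p (4.92 to 7.68) overlap.

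As a description over 4 libraries, the distance between log2 profiles centred on their own mean was smallest for miR-143-5p and miR-145a-5p (0.33), both from the smooth-muscle transcript, and largest for the 2 arms of miR-145a (0.82). The median over all pairs of miRNAs with a mean of at least 100 was 0.88. Of 248 such miRNAs, the 3 closest to miR-126a-5p were miR-351-5p (0.09), miR-205-5p (0.16) and miR-676-5p (0.19). miR-205-5p, known from basal epithelium, was at 7168 normalised reads in AC3-/- a, 8260 in AC3-/- b, 11194 in wild-type a and 4743 in wild-type b. The 3 closest to the mean of the resolved miR-143 and miR-145a arms were miR-652-3p (0.08), miR-92a-3p (0.10) and miR-25-3p (0.13). All of these were lower in wild-type b than in wild-type a, which follows from choosing them by closeness to arms with that pattern. All distances share the same 4 libraries and size factors, and no test was made.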

How the data were processed

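The authors deposited 1 table of 1167 miRNAs. Per the file headers and values it holds a signal for each genotype, the mean normalised read count. It also gives the authors' log2 fold change, with AC3-/- as numerator, shrunken toward 0. The deposited p-value comes with an adjusted one that equals a Benjamini-Hochberg adjustment over all 1167 rows within 0.001. Bowtie, DESeq 1.8.3 and GRCm38 appear, without roles, in the submitters' processing notes. Per the labels' protocols, Trizol RNA was ligated to adaptors at both ends, amplified by PCR and size-selected on a gel. The counter, its strand setting, the miRBase release and any filter: not given in the sources used here.

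Whole reads per library were recovered from the means, after the table was seen, by least squares and enumeration (Python 3.11.15, numpy 2.4.6): 1125 AC3-/- and 1134 wild-type rows had 1 solution and 0 had none. Recovery and limma were tested on simulated data that held no outlying library, so how limma calls at the spread seen here was not tested. limma 3.58.1 (R 4.3.3), with an intensity trend, was run on log2(normalised value + 1), which understates changes of low miRNAs, over the 449 resolved rows with a mean of at least 10. The fit to arm ratios had no intensity trend. Intervals cover 95%. All listed members are named, with the most abundant row of each other vascular list and any row past an adjusted p of 0.05. The rule also took the most abundant row of the non-vascular lists, which are given here as sums only. The 3 nearest profiles came from rows reaching a mean of 100. Members and lists were chosen with earlier results of these data known, so no list was tested.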

Additional observations from a re-analysis of the deposited data

How the results depend on the processing

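0 of the 6 arms were called when the authors' p-values were adjusted over rows with a mean of at least 10. In limma 0 of the 4 arms with library values were called, also without the low-value filter, with a pseudocount of 0.5, and with each library left out, where the lone library of a genotype is assumed to vary like the other genotype's. miR-126a-5p, at -0.001, turned positive in 8 of 12 alternatives: 0.49 as a share of the summed means, 0.050 less the median log2 ratio, 0.092 in limma with or without the low-value filter or with a pseudocount of 0.5, and 0.048 to 0.62 without AC3-/- a, AC3-/- b or wild-type a. It was -0.43 without wild-type b. miR-145a-3p turned to 0.16 as a share of the summed means, and ranged from -0.67 to 0.051 with 1 library left out. miR-143-5p ranged from -0.00073, without wild-type b, to 0.66 with 1 library left out. The log2 difference of the smooth-muscle to endothelial ratio in the less abundant arms ranged from -0.39 to 0.088 with 1 library left out, being 0.088 without AC3-/- b and 0.022 without wild-type b. For the 3 resolved arms over miR-126a-5p, a result added after seeing the data, it ranged from -0.13 (without wild-type a) to 0.51 and was -0.15 without miR-145a-5p. The miR-145a arm ratio, also added then, ranged from 0.46 to 0.93. List medians over rows with library values, with 1 library left out, ranged from -0.22 to 0.58 for the 4 arms, -0.32 to 0.48 for other endothelium-enriched miRNAs and -0.058 to 0.089 for mural cells and fibroblasts, whose median of -0.02 was 0.043 with the more abundant arm only and 0.018 over single libraries. The cause of these changes was not tested. No paired analysis was possible because the deposited columns carry no replicate numbers, so the planned fit with a replicate block was not run. No library could be left out for miR-126a-3p and miR-143-3p, whose spread is not known.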
